A study of Mus musculus with 12 samples.

Results

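The response of the Parp1-/- mouse colon to dextran sulfate sodium (DSS) was measured in 6 of the 12 arrays of a study of DSS colitis in wild-type and Parp1-/- mice: 3 arrays of Parp1-/- mice given 4% DSS for 7 days against 3 arrays of Parp1-/- mice given plain water. DSS is a sulfated sugar polymer that injures the lining of the colon when mice drink it. All 6 mice lacked Parp1, were housed in a conventional facility and were 6 to 8 weeks old. The labels give neither sex nor strain. No wild-type array enters the results, apart from the centring of the values and 1 model of all 12 arrays given near the end. Each array held total RNA of the whole colon, wall included, after washing and freezing, and each was taken as 1 mouse. The arrays were Affymetrix expression arrays, and the comparison covered all 21314 genes with a probe set of exactly 1 gene symbol. The values are on a log2 scale on which each probe set has a median of 0 across the study's 12 arrays. A gene's values can therefore be set against each other, but those of 2 different genes cannot. Neither the base of the logarithm nor its direction is stated. The base was taken as 2 and a larger value as more RNA.

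PARP1 is the enzyme that senses broken DNA and attaches chains of ADP-ribose to itself and to nearby proteins, using NAD+ as the donor. It also acts as a partner of the transcription factor NF-kappaB in inflammatory gene expression, and blocking or deleting it has been studied in colitis models for both reasons. In DSS colitis the barrier fails first: bacteria reach the mucosa, epithelial cells and macrophages release cytokines and chemokines through NF-kappaB, neutrophils and monocytes arrive, interferon programs switch on, and the surviving epithelium spreads to cover the wound. The question put to the data here was which of these programs differed between DSS and water in mice that lack Parp1.

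The programs leave marks in the regulatory DNA of their genes, and 5 stretches from genes described below are shown because they carry those marks before the start of the gene. They were read from RefSeq promoters of assembly GRCm38.p6, and capitals mark the motif on either strand.
Ifit1, chr19:34640765-34640833, plus strand: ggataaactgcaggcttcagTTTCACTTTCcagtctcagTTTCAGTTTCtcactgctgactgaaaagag
Isg15, chr4:156200855-156200916, minus strand: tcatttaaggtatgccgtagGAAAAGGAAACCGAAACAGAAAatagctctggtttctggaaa
Cxcl2, chr5:90903782-90903850, plus strand: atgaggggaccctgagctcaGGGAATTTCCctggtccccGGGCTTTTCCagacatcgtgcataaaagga
Steap4, chr5:7960226-7960275, plus strand: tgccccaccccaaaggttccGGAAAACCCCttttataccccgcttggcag
Per3, chr4:151044796-151044890, minus strand: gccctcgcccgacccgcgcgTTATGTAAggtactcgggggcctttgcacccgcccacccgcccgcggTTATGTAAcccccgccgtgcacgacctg
Ifit1 and Isg15 carry the interferon-stimulated response element, searched as GAAA, any 2 bases and GAAA again, with 2 and 3 matches of which those of Isg15 overlap. Cxcl2, with 2 matches, and Steap4, with 1, carry an NF-kappaB motif, searched as GGG, any 2 bases and TTTCC. Per3 carries 2 copies of the D-box TTATGTAA, the site bound by the clock output factor Dbp and its relatives, which 0.938% of all promoters hold. A match is a description of the letters and not a measured binding site.

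Before the comparison, the 6 arrays were checked against their labels. Parp1 was at -0.03, -0.08 and -0.01 on water arrays 1, 2 and 3 and at -0.22, -0.09 and 0.03 on DSS arrays 1, 2 and 3. Its groups overlapped, and its difference was -0.05 ± 0.09 (SE, n = 3 mice per group; limma adjusted p = 0.921). The position of its probes relative to the deleted part is unknown, so Parp1 tests no label. Water 3 stood apart in sex-linked genes: Xist, the RNA that silences 1 X chromosome in female cells, was at 5.47 there and between -0.13 and 0.05 on the other 5 arrays. The Y-linked genes Uty, Kdm5d and Eif2s3y were at -2.79, -3.07 and -3.19 on water 3 and between 0.01 and 0.51 elsewhere. By these genes water 3 had the pattern of a female and the other 5 arrays that of males. Sex was thus not balanced between water and DSS, and its part in the differences was not tested.

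The arrays also differed in the level of smooth muscle genes. The mean of 21 smooth muscle genes was at -0.33, 2.25 and 2.16 on water 1, 2 and 3 and at 2.20, -0.16 and -0.08 on DSS 1, 2 and 3. Water 2, water 3 and DSS 1 were thus high and water 1, DSS 2 and DSS 3 low, so that the muscle level crosses the groups. Myh11, the myosin heavy chain of smooth muscle, was at 4.09, 4.15 and 3.98 on the 3 high arrays and between -0.40 and -0.11 on the others. Means of fibroblast, endothelium and enteric neuron genes were also higher on each of those 3 arrays than on any of the other 3. Epithelial identity genes (Epcam, Cdh1, keratins and others) differed little, with array means between 0.03 and 0.27. In bulk RNA, fewer cells of a type and less RNA per cell cannot be told apart. Differences are therefore also given inside each set, DSS 1 minus the mean of water 2 and 3 (high muscle) and the mean of DSS 2 and 3 minus water 1 (low muscle). With 1 array on a side these carry no test.

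**Figure D1:**
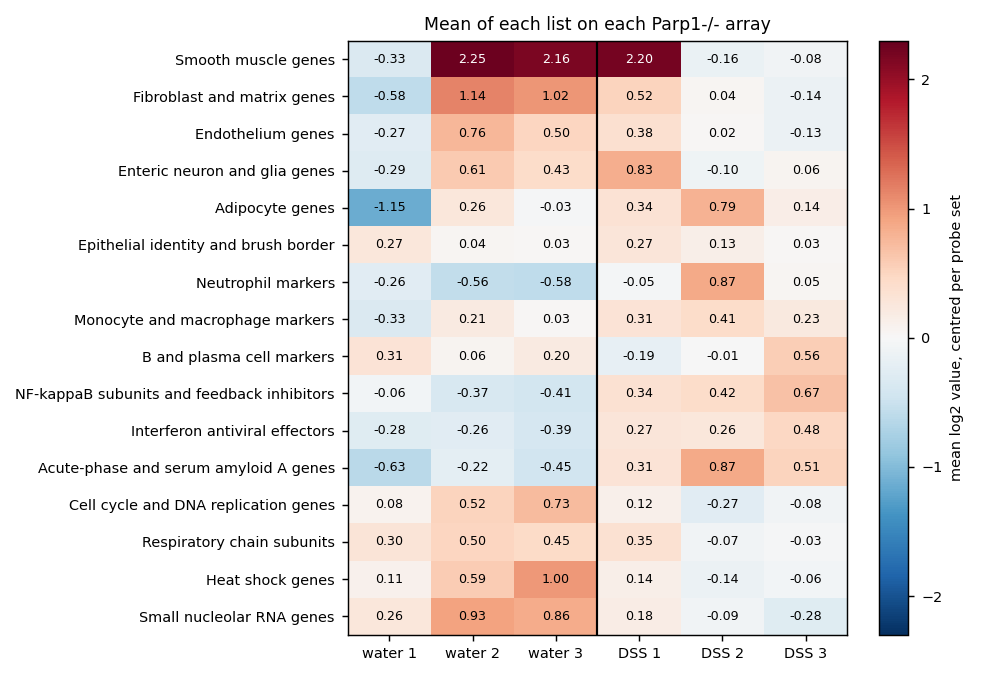
Mean log2 value, centred per probe set, of 16 gene lists (lines) on the 3 water and 3 DSS arrays of Parp1-/- colon (columns; the black line divides the groups). Smooth muscle genes were high on water 2, water 3 and DSS 1, with fibroblast, endothelium and enteric neuron genes following the same arrays, while adipocyte genes were lowest on water 1 (-1.15) and neutrophil markers highest on DSS 2 (0.87).

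After DSS, 9 of the 21314 genes rose and 0 fell at a limma adjusted p under 0.05, which is 0.0422% of genes called higher and 0% lower. At an unadjusted p under 0.05 there were 1075 genes higher, 5.04%, and 814 lower, 3.82%. The genes that rose were Clca4b, Slpi, Aldh1a3, Steap4, Plat, Dhrs9, Tnf, Cd14 and Lpcat4. They encode secreted and surface proteins, sensors and signals of innate immunity, and enzymes of retinoid and lipid metabolism. RNA of the whole colon does not show which cells made them. For each, all 3 DSS arrays lay above all 3 water arrays. Over all genes, 1667 had DSS wholly above water, 7.82%, and 1001 wholly below, 4.70%.

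Among secreted and surface proteins, Clca4b belongs to a family that regulates chloride channels in the gut lining. It was at -2.43, -3.28 and -1.96 on the water arrays and at 2.50, 1.96 and 2.84 on the DSS arrays. Every DSS array was thus far above every water array. It rose by 4.99 ± 0.38 on the log2 scale, 31.7-fold (SE, n = 3 per group; limma adjusted p = 0.0432). Slpi, an inhibitor of neutrophil elastase that mucosal cells secrete, was at -0.93, -1.95 and -1.72 in water and at 2.48, 2.11 and 2.82 after DSS. Its DSS arrays lay close together and none approached the water arrays. It rose by 4.00 ± 0.30, 16-fold (limma adjusted p = 0.0432). Steap4, a metalloreductase of iron and copper whose gene responds to inflammatory cytokines, was at -0.29, -0.37 and -0.64 in water and at 2.62, 2.46 and 2.81 after DSS. The spread within each of its groups, SD 0.19 and 0.17, was small beside the distance between them. Steap4, whose NF-kappaB motif is printed above, rose by 3.06 ± 0.14, 8.35-fold (limma adjusted p = 0.00472). Plat, the tissue-type plasminogen activator that starts the dissolution of fibrin clots, was at -0.33, -0.10 and 0.04 in water and at 2.55, 2.56 and 2.38 after DSS. Its 3 DSS arrays were nearly equal. Plat rose by 2.63 ± 0.12, 6.18-fold, with the same adjusted p as Steap4.

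Of innate immune genes, Tnf encodes tumour necrosis factor, the cytokine at the head of many inflammatory cascades, and Cd14 the co-receptor that presents bacterial lipopolysaccharide to Tlr4. Tnf was at -0.83, -0.49 and -0.81 in water and at 1.21, 1.78 and 1.69 after DSS. It rose by 2.27 ± 0.18, 4.83-fold (limma adjusted p = 0.0432), and no DSS array was near the water range. Cd14 was at -0.03, 0.00 and -0.25 in water and at 1.62, 2.13 and 2.18 after DSS. It rose by 2.07 ± 0.17, 4.21-fold, at the same adjusted p. DSS 1 was the lowest DSS array for both genes and still lay well above water.

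Both steps that turn vitamin A into retinoic acid were represented among the 9. Dhrs9, which oxidises retinol to retinal, was at -1.24, -1.62 and -1.02 in water and at 1.15, 1.12 and 1.64 after DSS. It rose by 2.60 ± 0.21, 6.04-fold. Aldh1a3, which oxidises retinal to retinoic acid, was at -0.59, 0.00 and -0.00 in water and at 3.16, 3.37 and 4.26 after DSS. It rose by 3.79 ± 0.32, 13.8-fold, with a limma adjusted p of 0.0432 for both. DSS 3 was the highest array for each of the 2 enzymes. Lpcat4, an acyltransferase that remodels membrane phospholipids, was at 0.02, -0.09 and -0.02 in water and at 0.94, 0.84 and 0.96 after DSS. Its change was the smallest of the 9, 0.94 ± 0.08 or 1.92-fold, and its arrays the tightest.

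**Figure D2:**
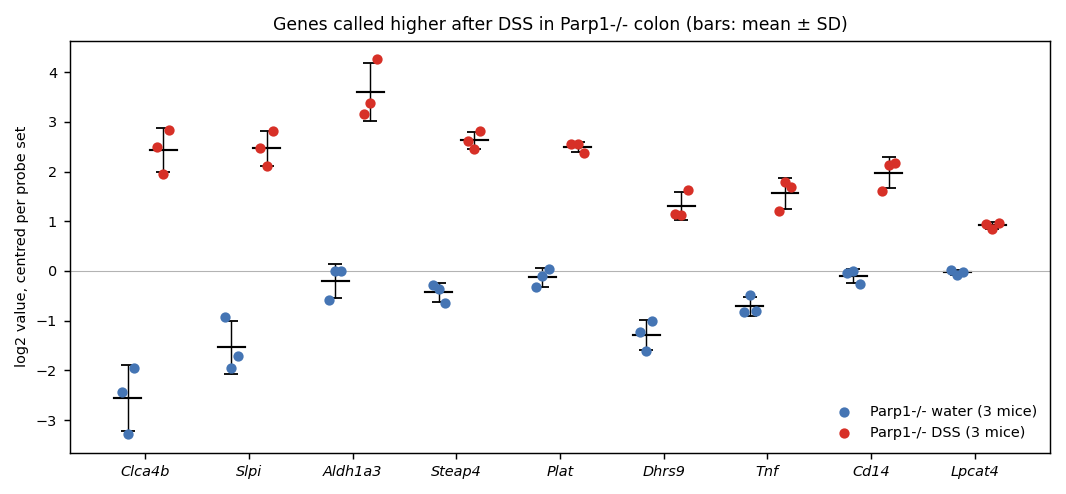
Log2 value, centred per probe set, of the 9 genes called higher, with 1 point per mouse and bars for the mean ± SD of 3 mice. The blue water points and the red DSS points do not overlap for any of the 9, and the distance runs from 4.99 for Clca4b to 0.94 for Lpcat4.

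The 9 rises were present at both muscle levels. Clca4b had the largest of the 9 at either level, and Plat and Steap4 were also called with the smooth muscle mean as a covariate, where 4 genes were called in all. In that fit Ifit1, an antiviral protein that binds foreign RNA, rose by 1.35 and Snora34, a small nucleolar RNA, fell. The number of calls fell when any 1 array was left out, which also leaves fewer samples. It was 4 without water 1, 0 without water 2, 2 without water 3, 4 without DSS 1, 0 without DSS 2 and 0 without DSS 3. Without water 3, the array with high Xist, Plat and Steap4 remained called. Leaving any 1 array out, the difference ranged from 4.62 to 5.29 for Clca4b, from 2.96 to 3.15 for Steap4 and from 2.53 to 2.71 for Plat.

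Several genes lay just outside the threshold. Nos2, the inducible nitric oxide synthase, was at -1.37, -2.20 and -1.99 in water and at 1.07, 1.06 and 1.80 after DSS, a difference of 3.17 ± 0.29 (limma adjusted p = 0.0527). Duox2, which makes hydrogen peroxide at the epithelial surface, was at 0.01, -0.27 and -0.35 in water and at 1.36, 1.15 and 1.61 after DSS (1.58 ± 0.15, adjusted p = 0.0538). Smox, which oxidises spermine and releases hydrogen peroxide, differed by 1.19 ± 0.11 (adjusted p = 0.0527). For all 3 sources of oxidant the groups did not overlap. By contrast Nox1, the superoxide-producing oxidase of colon epithelium, was at 0.79, 0.15 and 0.74 in water and at -0.04, -0.56 and -0.47 after DSS, a difference of -0.92 ± 0.22 (adjusted p = 0.365). Of 13 oxidase and nitric oxide genes measured, 4 had DSS wholly above water and 1 wholly below, against 7.82% and 4.70% of all genes. Their median of 0.04 lay between 0.01 and 0.10 with 1 array left out.

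**Figure D3:**
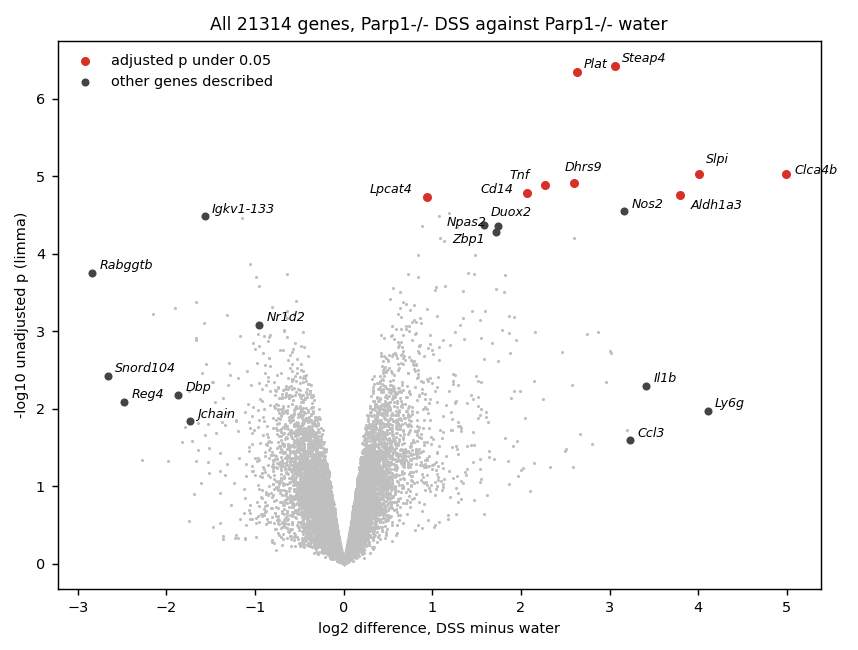
Log2 difference, DSS minus water, of all 21314 genes against -log10 of the unadjusted limma p. The 9 called genes (red) all lie on the right, with Plat and Steap4 highest, while Il1b, Ly6g and Ccl3 lie as far right but low: the 3 DSS arrays of Il1b and Ccl3 and the 3 water arrays of Ly6g are widely spread.

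Several of the largest differences that did not pass the test belonged to genes in which 1 DSS mouse stood above the other DSS mice. Il1b, the cytokine interleukin-1 beta, was at -1.11, -1.60 and -1.57 in water and at 0.77, 3.93 and 1.25 after DSS (3.41 ± 0.80, limma adjusted p = 0.365). Ccl3, a chemokine of macrophages and neutrophils, was at -1.07, -1.57 and -1.47 in water and at 0.54, 4.60 and 0.45 after DSS (3.23 ± 1.11, adjusted p = 0.497). In both, each DSS array exceeded the water arrays, and DSS 2 stood far above the others. The same array was the highest for Saa3, an acute-phase apolipoprotein (4.34 on DSS 2 against 0.83 and 0.58 on DSS 1 and 3), for Cxcl2 (4.06 against 0.43 and 1.44), for Il1a (3.85 against 0.07 and 0.98) and for Ptgs2, the inducible cyclooxygenase (3.56 against 0.02 and 1.33). Clec4e, a myeloid receptor for damaged cells, was at 3.60 on DSS 2 and at 0.28 and 0.18 on the other DSS arrays. Neutrophil markers were highest on the same array: their mean was 0.87 on DSS 2, against -0.05 and 0.05 on DSS 1 and 3 and -0.58 to -0.26 in water. The part of neutrophil number in these differences was not tested.

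The neutrophil list had 25 measured members, of which 23 lay above 0, against 53.1% of all genes. Of these members 15 had DSS wholly above water, against 7.82% of all genes, and 1 wholly below, against 4.70%. At an unadjusted limma p under 0.05, 8 had a difference above 0, against 5.04% of all genes, and none was called. The median was 0.53, against 0.01 over all genes, and 0.30 without DSS 2. The most specific marker, Ly6g, was at -0.21, -3.70 and -4.83 in water and at 1.24, 0.74 and 1.60 after DSS. Water 2 and 3 thus lay far below water 1, itself below every DSS array, and the difference was 4.11 ± 1.14 (adjusted p = 0.409). Cxcr2, the receptor through which neutrophils follow chemokines, was at -0.47, -0.58 and -0.46 in water and at 0.12, 1.91 and 1.08 after DSS. S100a8, a subunit of the antimicrobial complex calprotectin, was at -0.44, -0.63 and -0.43 in water and at 0.02, 1.06 and -0.13 after DSS. Mpo, the granule peroxidase, differed by 0.11 ± 0.09 and its groups overlapped.

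Monocyte and macrophage markers divided: 13 of 25 lay above 0, and 8 had DSS wholly above water, against 7.82% of all genes. The median was 0.02, or -0.04 without water 1. Ly6c2, carried by inflammatory monocytes, was at -0.66, -0.28 and -0.27 in water and at 1.79, 0.98 and 2.50 after DSS (2.16 ± 0.37, adjusted p = 0.239). Its neighbour Ly6c1, which endothelium also expresses, was at -0.21, -0.22 and -0.08 in water and at 1.97, 0.66 and 2.62 after DSS. DSS 2, highest for the neutrophil genes, was the lowest DSS array for both Ly6c genes. The 2 genes are near copies and their probes may share signal.

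Chemokines that bind Cxcr2 and recruit neutrophils had 8 members measured with the receptor. All 8 lay above 0 and 6 had DSS wholly above water, against 7.82% of all genes. Their median of 1.21 was 0.48 at the high muscle level and 1.45 at the low level. Cxcl5, made by epithelium, was at -0.42, -0.87 and -0.69 in water and at 2.26, 0.67 and 2.48 after DSS, and Cxcl1 at -0.43, -0.61 and -0.70 in water and at 0.23, 0.42 and 1.32 after DSS. For these 2 chemokines DSS 3 was highest. DSS 2 was the highest array for 4 of the 6 members wholly above water, Cxcl2 among them. Without DSS 2 the list's median was 0.83. Of the 7 members with a promoter in the RefSeq table, 3 held the NF-kappaB motif of which Cxcl2 shows 2 copies above, against 1.63% of all 32851 promoters.

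Cytokines of other families gave smaller counts. Of the interleukin-1 family and its receptors, 12 of 14 lay above 0 and 5 had DSS wholly above water, against 7.82% of all genes. Among these 5 was Il1rn, the natural antagonist of the receptor, at -0.04, -1.18 and -0.53 in water and 0.04, 1.32 and 0.82 after DSS. The median of this list was 0.19, and 0.04 without DSS 2. In the TNF family 11 of 13 lay above 0. Besides the called Tnf, Tnfrsf1b, its inducible receptor, was at -0.48, 0.05 and -0.05 in water and at 1.13, 1.58 and 1.22 after DSS (1.47 ± 0.19, adjusted p = 0.129). Ligand and receptor were both higher on every DSS array. Effector cytokines of T cells and innate lymphoid cells had 2 of 18 members wholly above water, near the 7.82% of all genes, and a median of 0.14. Il17a and Ifng differed by -0.01 ± 0.13 and 0.10 ± 0.10, with overlapping groups. In the interleukin-6 family 7 of 17 had DSS wholly above water, against 7.82% of all genes. Its feedback inhibitor Socs3 was at -0.39, -0.39 and -0.34 in water and at 0.24, 0.13 and 0.45 after DSS.

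NF-kappaB genes lay above 0 as a group at both muscle levels. All 17 measured subunits and feedback inhibitors lay above 0, and 12 were above 0 at both muscle levels, against 28.9% of all genes. DSS lay wholly above water for 11, against 7.82% of all genes, and 11 had an unadjusted limma p under 0.05, against 5.04%. The median was 0.55, with 0.57 at the high and 0.44 at the low muscle level. None was called. The subunit Rel was at -0.21, -0.85 and -0.83 in water and at 0.96, 1.02 and 1.90 after DSS (1.92 ± 0.30, adjusted p = 0.211). Tnfaip3, the A20 protein that shuts the pathway down, was at -0.11, -0.57 and -0.42 in water and at 0.39, 0.95 and 1.14 after DSS. Its binding partner Tnip3 was at -0.31, -2.0 and -1.77 in water and at 1.25, 1.10 and 2.60 after DSS, and Nfkbiz, a nuclear member of the inhibitor family, differed by 1.03 ± 0.14. Subunits and inhibitors were thus higher on the same arrays, with DSS 3 the highest array for 7 of the 11 that did not overlap. The same array was the highest for 50% of all genes wholly above water. The NF-kappaB motif was held by 4 of the 15 genes of this list with a promoter in the RefSeq table.

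Interferon antiviral effectors, the proteins that block viruses once interferon has bound its receptor, had 21 of 22 members above 0. DSS lay wholly above water for 17 of 22, against 7.82% of all genes, and 20 of 22 were above 0 at both muscle levels, against 28.9% of all genes. The median was 0.59, with 0.50 at the high and 0.47 at the low muscle level and 0.45 to 0.66 with 1 array left out. Zbp1, a sensor of unusual nucleic acids that can trigger cell death, came closest to the threshold: it was at -0.90, -0.89 and -1.09 in water and at 0.74, 0.43 and 1.08 after DSS (1.71 ± 0.17, limma adjusted p = 0.0594). Oasl2, of the oligoadenylate synthetase family, was at -0.56, -0.75 and -1.22 in water and at 0.59, 1.16 and 1.18 after DSS (1.82 ± 0.23, adjusted p = 0.129). Ifit1 was at -0.52, -1.23 and -1.29 in water and at 0.10, 0.85 and 0.66 after DSS (1.55 ± 0.28, adjusted p = 0.242). None of these genes had a DSS array within the water range. Isg15, the ubiquitin-like modifier, differed by only 0.35 ± 0.09, and Bst2, which tethers budding virus, was at -0.08 ± 0.13. Of 16 members with a promoter in the table, 9 held the interferon-stimulated response element shown above, 56.2%, against 3.44% of all promoters.

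Other interferon targets shared the direction with more spread. Cxcl9, Cxcl10 and Cxcl11, which recruit activated T cells, had DSS wholly above water, with Cxcl10 at -1.11, -1.35 and -1.27 in water and 0.37, 0.03 and 1.49 after DSS (1.88 ± 0.36, adjusted p = 0.277). Of the interferon-inducible GTPases, which attack vacuoles of intracellular microbes, 6 of 11 had DSS wholly above water, against 7.82% of all genes. Their median of 0.34 was 0.18 without water 1, and 0.23 at the high and 0.64 at the low muscle level. Irgm2 was at 0.65, 0.10 and 1.65 on the DSS arrays and between -0.29 and -0.10 in water. DSS 3 was the highest array for 5 of these 6 GTPases and for all 3 chemokines. Over all genes wholly above water DSS 3 was the highest for 50%. In the MHC class II list, 0 of 9 had groups that did not overlap, and limma called 0 of 9 and gave 0 at an unadjusted p under 0.05. Over all genes 7.82% had DSS wholly above water and 4.70% wholly below. At that p 5.04% of all genes were higher and 3.82% lower, and 0.0422% were called higher. With 9 genes, counts of 0 lie near those shares.

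Relatives of the deleted gene were described apart. Of 13 genes for the DNA-damage PARPs and the enzymes that turn over ADP-ribose, 0 had groups that did not overlap and 0 an unadjusted limma p under 0.05. Over all genes 7.82% had DSS wholly above water and 4.70% wholly below, and 5.04% were higher and 3.82% lower at that p. With 13 genes, counts of 0 lie near those shares. The median of the 13 was -0.12. That median was -0.27 without DSS 1 and -0.05 without DSS 2, and 0.10 at the high and -0.16 at the low muscle level. Parp2, the closest relative of PARP1 in the DNA damage response, was at -0.03, 0.25 and 0.03 in water and at 0.40, 0.07 and -0.18 after DSS, a difference of 0.02 ± 0.17. The mono-ADP-ribosylating PARPs add single units and include interferon-induced antiviral members. Of 10 measured, 5 had DSS wholly above water, against 7.82% of all genes, and the median was 0.47. Parp14 was at 0.04, -0.04 and -0.21 in water and at 0.57, 0.45 and 0.71 after DSS (0.65 ± 0.11, adjusted p = 0.239). Parp9, Parp12 and Zc3hav1, the zinc finger antiviral protein, differed by 0.73 ± 0.24, 0.85 ± 0.28 and 0.56 ± 0.15. DSS 3 was the highest array for each of the 5. The split between the 2 kinds of PARP was not tested.

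**Figure D4:**
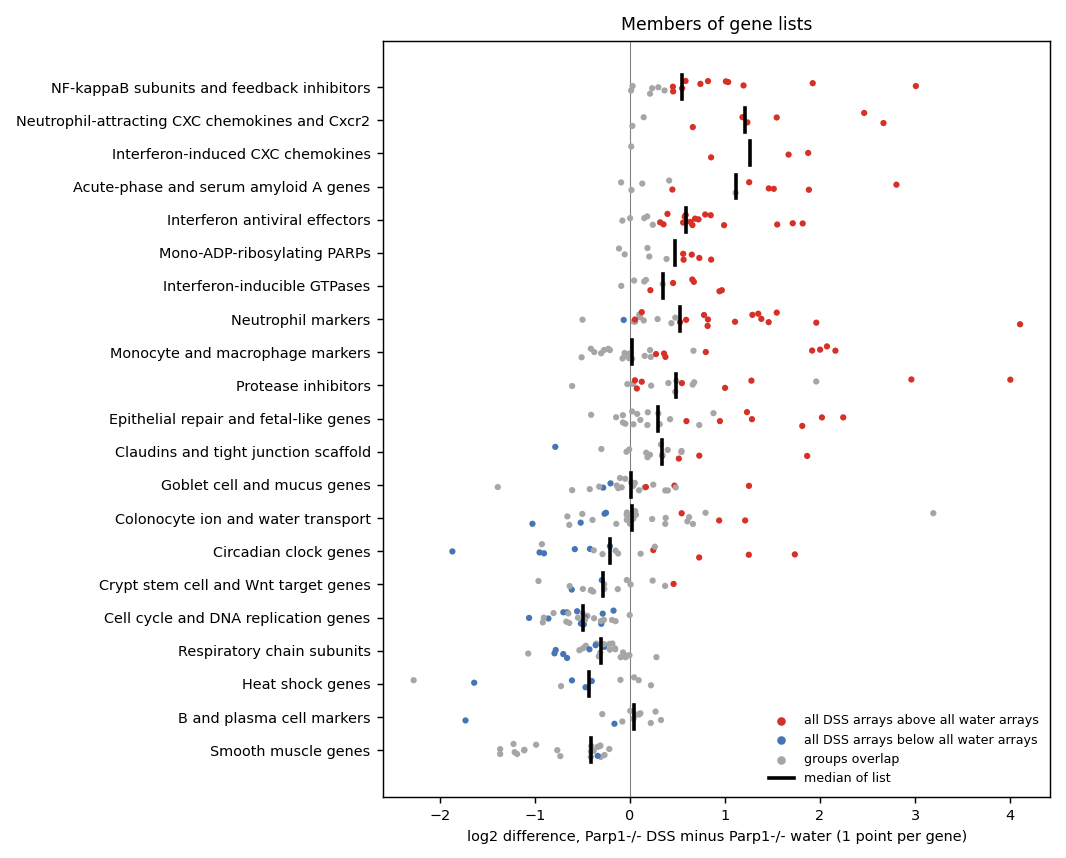
Log2 difference, DSS minus water, of each member of 21 gene lists (1 point per gene), with the list's median as a black bar. Red points, with DSS wholly above water, are frequent in the NF-kappaB, chemokine and interferon lists, blue points, with DSS wholly below, occur in the cell cycle and respiratory chain lists, and the clock list holds 4 red and 6 blue points.

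Acute-phase and antimicrobial genes lay on both sides of 0. Of 11 acute-phase genes 10 lay above 0 and 6 had DSS wholly above water, against 7.82% of all genes. Their median of 1.11 was 0.55 without DSS 2. Lbp, which hands lipopolysaccharide to Cd14, was at -1.27, -0.65 and -0.89 in water and at 0.53, 0.24 and 2.05 after DSS. Lcn2, which withholds iron from bacteria, was at -0.94, -1.01 and -1.11 in water and at 0.08, 1.49 and -0.08 after DSS (1.51 ± 0.41, adjusted p = 0.402). DSS 3 led for Lbp and DSS 2 for Lcn2. Among protease inhibitors other than Slpi, Wfdc18 was at -0.69, -0.30 and -0.63 in water and at 0.81, 0.76 and 0.63 after DSS. It differed by 1.28 ± 0.13 (limma adjusted p = 0.0538). In the protease inhibitor list, Slpi included, 8 of 18 had DSS wholly above water, against 7.82% of all genes. In the list of Reg family and secreted antimicrobial proteins 10 of 17 lay above 0, with a median of 0.19. DSS lay wholly above water for 5 and wholly below for 2, against 7.82% and 4.70% of all genes. Chil1 and Ltf, 2 of those above, differed by 1.22 ± 0.44 and 0.82 ± 0.14. Of the 2 below, the lectin Reg4 of secretory epithelial cells was at 1.74, 1.39 and 2.77 in water and at 0.48, -1.82 and -0.19 after DSS (-2.48 ± 0.65, adjusted p = 0.386). The microbicidal ribonuclease Ang4 was at 1.15, 1.04 and 0.68 in water and at 0.08, -0.89 and -0.20 after DSS (-1.30 ± 0.27, adjusted p = 0.298). The lectin Reg3b was at -1.48, -0.72 and 0.34 in water and at 1.31, 1.28 and -0.34 after DSS, with groups that overlapped.

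Genes linked to epithelial wound repair had 18 of 23 members above 0 and 7 wholly above water, against 7.82% of all genes. Their median of 0.30 was 0.20 without water 1. Plaur, the receptor that focuses plasminogen activation at the cell edge, was at -1.22, -0.68 and -0.19 in water and at 1.08, 1.07 and 1.19 after DSS (1.81 ± 0.25, adjusted p = 0.157). It stands beside the called Plat in the same fibrinolytic system. Anxa8 was at 0.30, -0.36 and -0.49 in water and at 1.90, 0.99 and 3.29 after DSS, and the growth factor Hbegf at -0.48, -0.72 and -0.27 in water and 0.83, 0.19 and 1.37 after DSS. Both were highest on DSS 3. Gsdmc2 and Gsdmc3, gasdermins of intestinal epithelium, differed by 1.04 ± 0.14 and 0.97 ± 0.17. Other members of the Clca family lay nearer to 0 than Clca4b: Clca4a differed by 0.81 ± 0.17, and Clca1, the goblet cell member, by 0.15 ± 0.13.

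Barrier and transport lists had members on both sides of 0. Cldn8, a tight junction claudin of the distal colon, was at -0.21, 0.17 and -0.17 in water and at 1.88, 1.10 and 2.39 after DSS (1.86 ± 0.32, adjusted p = 0.239). Cldn15, a claudin that forms cation pores, was at 0.53, 0.92 and 0.71 in water and at 0.18, 0.40 and -0.79 after DSS (-0.79 ± 0.31, adjusted p = 0.553). Over the whole claudin list 4 of 16 had DSS wholly above water and 1 wholly below, against 7.82% and 4.70% of all genes. Scnn1b, a subunit of the epithelial sodium channel, was at -0.01, 0.01 and -0.38 in water and at 0.74, 0.71 and 0.98 after DSS (0.94 ± 0.14, adjusted p = 0.208). Cftr, the chloride channel of secretion, was at 0.58, 0.79 and 0.73 in water and at -0.04, 0.04 and -0.98 after DSS (-1.03 ± 0.28, adjusted p = 0.406). RNA of this sodium channel subunit was thus higher and that of Cftr lower on all DSS arrays. In their list, 22 of 29 members overlapped between the groups. DSS lay wholly above water for 3 and wholly below for 4, against 7.82% and 4.70% of all genes. Goblet cell genes and colonocyte transport genes had medians of 0.01 and 0.02, which lay between -0.11 and 0.07 and between -0.07 and 0.10 with 1 array left out. Muc2, the main secreted mucin, differed by -0.09 ± 0.09 and the carbonic anhydrase Car1 by 0.05 ± 0.10.

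The cell cycle list pointed the other way. Its array means were 0.08, 0.52 and 0.73 in water and 0.12, -0.27 and -0.08 after DSS, so that DSS 1 lay above water 1. All 28 members lay below 0, DSS lay wholly below water for 12, against 4.70% of all genes, and 24 were below 0 at both muscle levels, against 24.8%. The median was -0.50, with -0.49 at the high and -0.26 at the low muscle level, and none was called. Mki67, present only in dividing cells, was at 0.46, 0.75 and 1.21 in water and at 0.05, -0.15 and -0.05 after DSS (-0.86 ± 0.20, limma adjusted p = 0.356). Mcm6, of the replicative helicase, was at 0.23, 1.23 and 1.55 in water and at 0.00, -0.00 and -0.17 after DSS (-1.06 ± 0.33, adjusted p = 0.456). In both genes water 1 was the lowest water array, and without water 3 the list's median was -0.37. Lgr5, the receptor that marks crypt stem cells, was at 0.20, 0.47 and 0.47 in water and at -0.43, 0.05 and -0.33 after DSS (-0.61 ± 0.16, adjusted p = 0.373), and 12 of 16 stem cell and Wnt genes lay below 0.

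Respiratory chain and heat shock genes lay mostly below 0 as well. Of 27 respiratory chain subunits 26 lay below 0 and 7 had DSS wholly below water, against 4.70% of all genes. Their median was -0.30. Cox4i1, of the oxidase that consumes oxygen, was at 1.06, 1.04 and 0.71 in water and at 0.56, 0.08 and -0.18 after DSS. DSS 1, the high muscle array, was the nearest to water, and the list's median was -0.11 at the high and -0.36 at the low muscle level. Heat shock genes had 4 of 10 wholly below water, against 4.70% of all genes. Their array means were 0.11, 0.59 and 1.0 in water and 0.14, -0.14 and -0.06 after DSS. Hspa1a, the inducible Hsp70, was at 0.15, 1.34 and 2.72 in water and at -0.34, -0.34 and -0.04 after DSS (-1.64 ± 0.61, adjusted p = 0.529). Water 3 was its highest array and water 1 lay near the DSS range. In the hypoxia and glycolysis list 7 of 20 were higher at an unadjusted limma p under 0.05, against 5.04% of all genes, and 0 lower. Hk2, the inducible hexokinase, was at -0.09, 0.05 and -0.05 in water and at 1.46, 0.38 and 1.52 after DSS.

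Of 17 circadian clock genes 10 had groups that did not overlap, and none was called. DSS lay wholly above water for 4 and wholly below for 6, against 7.82% and 4.70% of all genes. Npas2 and Arntl form the activator of the clock. Npas2 was at -0.68, -0.58 and -0.68 in water and at 0.96, 0.84 and 1.47 after DSS (1.73 ± 0.17, limma adjusted p = 0.0538), and Arntl at -0.82, -0.20 and -0.02 in water and 1.07, 0.46 and 1.19 after DSS. Both activators were higher on every DSS array. The repressor Nr1d2 was at 0.96, 0.78 and 0.85 in water and at -0.08, 0.20 and -0.38 after DSS (-0.95 ± 0.16, adjusted p = 0.231). The output factor Dbp was at 1.83, 0.83 and 0.07 in water and at -0.56, -0.86 and -1.46 after DSS (-1.87 ± 0.47, adjusted p = 0.371). Per3, whose D-boxes are printed above, was at 0.83, 0.44 and 0.23 in water and at -0.36, -0.44 and -0.42 after DSS (-0.90 ± 0.16, adjusted p = 0.239). These 3 were lower on every DSS array, while Per1 and Nr1d1 overlapped between the groups, at -0.15 ± 0.45 and -0.12 ± 0.28. The list's median was -0.21, with 0.04 at the high and -0.45 at the low muscle level. Of 16 promoters 5 held the E-box CACGTG bound by Clock and Arntl, against 7.15% of all. The labels do not give the hour at which each mouse was killed, so hour and treatment cannot be told apart.

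Retinoic acid genes, Dhrs9 and Aldh1a3 included, were divided, with 12 of 25 above 0. Their median was -0.01, between -0.07 and 0.07 with 1 array left out. Rdh10 was at 0.50, -0.06 and -0.20 in water and at 1.04, 1.04 and 1.15 after DSS, and Rdh16 differed by 1.46 ± 0.37. On the other side Aldh1a1, a sister enzyme of Aldh1a3, was at 0.03, 0.27 and 0.41 in water and at -0.03, -0.55 and -0.84 after DSS (-0.71 ± 0.22, adjusted p = 0.459), and the receptor Rarb differed by -0.33 ± 0.11. Dhrs9, Rdh10, Rdh16 and Aldh1a3 were thus higher on all DSS arrays, and Aldh1a1 and the receptor lower on all of them.

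Genes of other tissues in and around the wall differed between single arrays. Adipocyte genes had a median of 0.58, but water 1 lay far below the other arrays, with a list mean of -1.15. Fabp4, the fatty acid carrier of fat cells, was at -3.86 on water 1, 0.50 and 0.20 on water 2 and 3, and 0.84, 1.60 and 0.71 after DSS. The median of the list was 0.33 without water 1 and 0.37 without DSS 2. Scd1, Cyp2e1, Retn and Orm1, which fat tissue also expresses, likewise had their lowest value on water 1, at -2.54, -2.0, -1.64 and -1.55. The part of fat content in these differences was not tested. All 21 smooth muscle genes lay below 0 with a median of -0.41, which was -0.02 at the high and 0.25 at the low muscle level, and the fibroblast median of -0.33 was -0.46 and 0.36. Neither list kept 1 sign at both levels. Without water 1 the medians were -1.06 and -0.81, without DSS 1 the smooth muscle median was -0.98 and the fibroblast median -0.54, and without water 2 or 3 the fibroblast median was -0.08 or -0.16.

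Genes of antibody secretion were taken up next. Jchain, which links antibody molecules for secretion into the gut, was at 0.12, 1.84 and 1.61 in water and at -0.12, -0.30 and -1.21 after DSS (-1.73 ± 0.52, limma adjusted p = 0.443). Of 20 immunoglobulin segments, a set taken by gene name after the values were seen, 19 lay below 0. DSS lay wholly below water for 8, against 4.70% of all genes, 12 overlapped and none was called. The segment nearest to a call, a variable segment of the kappa light chain, was at 1.41, 1.28 and 0.94 in water and at -0.40, -0.46 and -0.20 after DSS (-1.57 ± 0.15, adjusted p = 0.0527). The segments' median of -0.74 was -0.92 at the high and -0.17 at the low muscle level. Segments are near copies, so their probes may share signal. In the B and plasma cell marker list 10 of 14 members lay above 0 and 2 had DSS wholly below water, against 4.70% of all genes. Its median of 0.05 turned to -0.16 without DSS 3 and -0.04 without water 2, and was -0.20 at the high and -0.01 at the low muscle level.

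**Figure D5:**
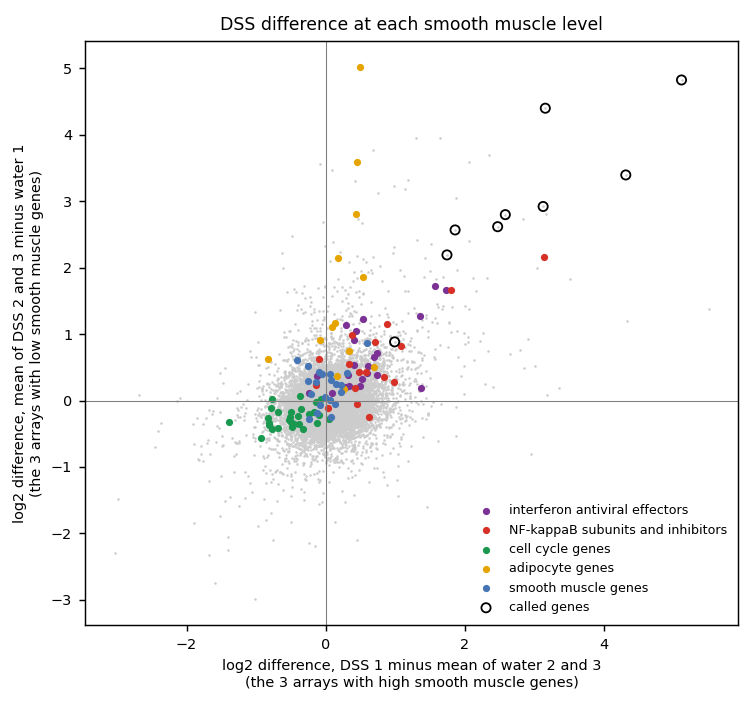
Log2 difference within the 3 arrays with high smooth muscle genes (DSS 1 minus the mean of water 2 and 3, horizontal) against that within the 3 with low ones (mean of DSS 2 and 3 minus water 1, vertical), 1 point per gene. The called genes (open circles) and most interferon and NF-kappaB genes lie above 0 on both axes and most cell cycle genes below 0 on both, while adipocyte genes are spread mainly along the vertical axis, where water 1 is the sole water array.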

How the data were processed

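The deposited values, taken as log2 with the base unstated, covered 31693 probe sets and 12 arrays and were centred per probe set by the authors. The sources used here do not give array software, background correction, normalization, batch, date or slide. Values ran from -4.83 to 5.47, and without scanner files signal over background is unknown. Of the probe sets 22586 had 1 gene symbol in the platform annotation, 1756 several and 7351 none. Probe sets of a gene were averaged. The 3 Parp1-/- DSS and 3 Parp1-/- water arrays entered a two-sided limma fit (lmFit and eBayes, limma 3.58.1, R 4.3.3). Benjamini-Hochberg adjustment ran over all 21314 genes, and called means an adjusted p under 0.05. Replicate numbers only name arrays. P-values measure the spread between these arrays. An exact permutation test of 3 against 3 cannot go below 0.1.

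The members and the 58 gene lists (975 of 1077 entries measured) were chosen with earlier results of these data known, and list counts are descriptions without a test. The text names called genes, the largest rises and falls among genes whose groups do not overlap, the smallest p, and in each list up to 4 members of largest change without overlap, otherwise the 2 of smallest p. Predicted models, small RNA genes, smell receptors and immune segments were passed over outside lists. Other genes named (among them Myh11, Per3, Isg15, Mpo, S100a8, Muc2 and Parp2) were chosen after their values were seen. Promoters (250 bases before to 50 after a start, RefSeq, GRCm38.p6) were searched on both strands. A gene of a list counted if any of its promoters held the motif, while the share of all promoters counts each promoter singly. Genes with several promoters can raise the share of a list, so the shares are not like measures. The fit was tested on simulated data.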

Additional observations from a re-analysis of the deposited data

How the results depend on the processing

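The 9 calls, all higher, became 16 after quantile normalization between the 6 arrays (15 higher, 1 lower; 8 of the 9 kept), 18 with array medians set to 0 (16 higher, 2 lower; 9 kept), 37 with array weights (30 higher, 7 lower; 9 kept), 4 with the smooth muscle mean as a covariate (3 higher, 1 lower; 2 kept) and 2 in 1 model of all 12 arrays, Clca4b and Nos2. An adjusted p under 0.01 left 2 and one under 0.1 gave 24. Leaving out 1 array gave 0 to 4 calls: 0 without water 2, DSS 2 or DSS 3, where limma gave 1022, 1836 and 1193 genes at an unadjusted p under 0.05. Robust eBayes and a 1.5-fold minimum gave the same 9 as a count, and single probe sets gave 10. The cause of these shifts was not tested, except that leaving arrays out leaves fewer samples. No called gene changed sign. Over the 216 named genes and all settings 61 calls were lost and 27 gained, and within 1 muscle level 148 values moved by more than the replicate spread. Signs turned for uncalled genes only: with 1 array left out, Xist (0.10 without water 3) and Parp1 (0.01 without DSS 1), a pheromone receptor gene on single probe sets, and Kdm5d and Xist within the low-muscle arrays. List medians of the NF-kappaB, interferon antiviral, cell cycle and respiratory chain genes kept their sign after both scalings and without any 1 array. No paired analysis was possible because the replicate numbers follow accession order and pair no mice. The 3 mice per group and unknown probe brightness limit every value.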

Other observations

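The small nucleolar RNA genes, which guide the chemical modification of ribosomal and spliceosomal RNA, had mostly lower values after DSS. The family was taken by gene name after the values were seen. Of 77 genes 71 lay below 0. DSS lay wholly below water for 33, against 4.70% of all genes, and wholly above for 0, against 7.82%. The median was -0.67, with -0.65 at the high and -0.28 at the low muscle level. Their array means were 0.26, 0.93 and 0.86 in water and 0.18, -0.09 and -0.28 after DSS, so that every DSS array lay below every water array. Snora34 was at 1.76, 2.57 and 2.71 in water and at 0.75, -0.06 and -0.12 after DSS (-2.15 ± 0.34, limma adjusted p = 0.211). Snord118 differed by -1.15 ± 0.11 (adjusted p = 0.0527). The largest negative difference among named protein-coding genes without overlap belonged to Rabggtb, which encodes a subunit of a prenyltransferase and hosts small nucleolar RNAs in its introns. Rabggtb was at 2.15, 2.65 and 3.41 in water and at -0.01, 0.25 and -0.54 after DSS (-2.83 ± 0.36, adjusted p = 0.129). The labels do not say which of its RNAs the probes read.

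Cytosolic ribosomal protein genes, also taken by name, had 48 of 63 members below 0 and 13 wholly below water, against 4.70% of all genes. Their median was -0.16, or -0.28 without DSS 1. Among 1054 smell and pheromone receptor genes 87 had DSS wholly above water, near the 7.82% of all genes, and 10 wholly below, against 4.70%, with a median of 0.03. The 9107 probe sets with several symbols or none, tested apart with limma, gave 0 called higher and 2 lower, with 651 at an unadjusted p under 0.05.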
